A study of Labrus bergylta with 24 samples.

Results

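Segment 3 of the ballan wrasse (Labrus bergylta) intestine was compared with segment 2, the segment directly in front of it. The wrasse has no stomach, and its intestine was divided into 4 consecutive segments from the anterior end (segment 1) to the hind-gut (segment 4). RNA of each segment was sequenced in 6 untreated, farmed adult fish that were all fed a commercial wrasse diet, so that both segments came from the same animals and differed in their position along the gut. The comparison used the 12 libraries of these 2 segments of the 24 in the series, 6 per segment, and the 18213 of 27392 gene models that had a value of 10 or more in at least 6 of the 12 libraries. Values are normalized counts, that is, the reads on a gene model after scaling each library by its size factor, and they can be compared between libraries but not between genes of different length.

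In vertebrates the intestine takes up nutrients along a gradient from front to back. Anterior enterocytes carry peptidases, sugar and peptide carriers at their brush border and pack absorbed fat into lipoproteins, which leave the cell through the endoplasmic reticulum (ER) and Golgi apparatus. Bile acids are recovered further back, where an apical sodium-dependent carrier takes them up, a cytosolic binding protein carries them through the cell and a basolateral exporter of paired subunits returns them to the blood. HOX genes, which code for transcription factors, mark the position along the body and gut axis, with higher-numbered members acting further back.

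Sequencing depth, recovered as whole reads, ran from 7867202 to 24175019 reads in segment 2 (median 21337412) and from 15528490 to 27818006 reads in segment 3 (median 18238351.5). The lowest depth was that of segment 2 of fish 1. The genes listed as markers of intestinal epithelium were high in both segments, with a summed value of 274156 to 346135 in segment 2 and 240081 to 308600 in segment 3. Of 13 tested epithelial markers, the actin-bundling villin gene VIL1 (LABE_00003386) was lower in segment 3 (log2 fold change -0.73, standard error 0.10, limma adjusted p = 0.00419), 0 were higher, and the median log2 fold change of the list was -0.03. Genes of the exocrine pancreas, whose tissue lies scattered around the gut of many bony fish, had summed values of 29464 to 240168 in segment 2 and 35520 to 363551 in segment 3, and 0 of 15 passed the test in either direction. Of 9 tested liver markers 3 were lower in segment 3, CYP7A1 and the plasma protein genes SERPINC1 (LABE_00065719, log2 fold change -0.84) and Fgg (LABE_00027589, -1.74). The summed values of the list were 3481 to 40157 in segment 2 and 1326 to 14002 in segment 3. CYP7A1 alone was at 2485 to 38388 and 569 to 13138, so that the upper ends of these sums are mostly this 1 gene. Of 6 tested red blood cell markers 2 were higher, with sums of 2242 to 4936 and 2749 to 5306. Over all tested models 3.01% were higher and 4.01% lower. The red blood cell count was 0 without fish 1, 3 or 5 and 3 without fish 2, and the liver count was 1 without fish 1, 3 or 5, since the call of Fgg was lost without fish 1, 3, 4 or 5 and that of CYP7A1 without fish 1, 3 or 5. Among further markers 0 of 19 smooth muscle, 0 of 11 neuron, 0 of 5 goblet cell and 0 of 10 endothelium markers passed. Lists this short can hold 0 at the shares of all models. The part of these cell types in the differences below was not tested.

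The libraries of fish 6 stood apart from those of the other fish. In 24 gene models whose level rose steeply from segment 2 to segment 3 in the other 5 fish (median log2 difference of 4.55), fish 6 rose by a median of 0.98 on the log2 scale, which is a ratio of 1.98, and the middle of its values (10th to 90th percentile) spanned 0.67 to 1.65. In 28 gene models that fell steeply in the other 5 fish (median -4.70), the median of fish 6 was -0.82, a ratio of 0.568, with 27 of the 28 within 1.5 of zero on the log2 scale. Each of the other fish, treated the same way, had a median ratio of 6.79 to 48.0 for rising genes and of 0.0113 to 0.0991 for falling genes. Over gene models, the deviation of the segment 2 library of fish 6 correlated with the mean deviations of segments 1, 2, 3 and 4 of the other fish at 0.24, 0.25, 0.10 and -0.32, whereas segment 2 libraries of fish 1 to 5 correlated with segment 2 at 0.62 to 0.79. The segment 3 library of fish 6 correlated with segment 3 at 0.30. The segment 3 library of fish 2 also stood out, with correlations of 0.23 with segment 3 and 0.17 with segment 4, against 0.49 to 0.82 with segment 3 in fish 1, 3, 4 and 5. The cause of these departures was not tested, the deposited labels were kept, and values without fish 6, or without fish 2 and fish 6, are given beside the results. Leaving out fish 2 and fish 6 was a choice made after seeing the data, so a lower p in that fit is no separate result.

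**Figure D1:**
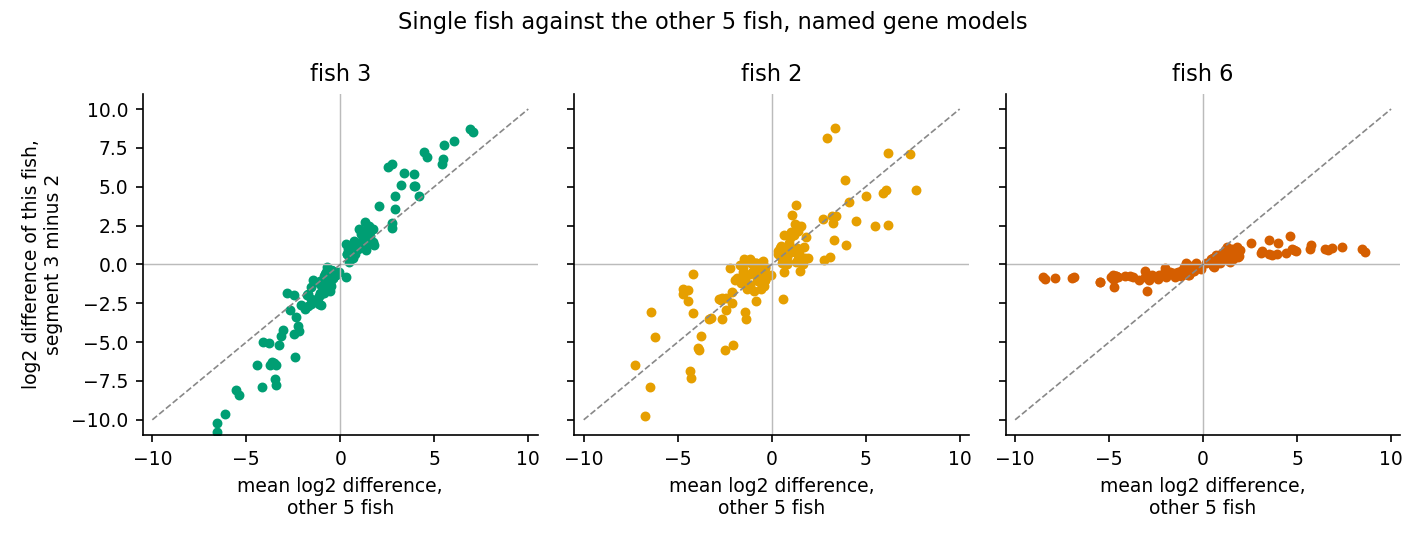
Log2 difference between segment 3 and segment 2 in fish 3, fish 2 and fish 6 (vertical axes) against the mean log2 difference of the other 5 fish (horizontal axes), 1 point per named gene model that was tested, with the dashed line where both are equal. Points of fish 3 follow the line with a steeper slope, those of fish 2 scatter around it, and those of fish 6 lie in a flat band near zero, with the sign of the mean of the other fish except in CDX1, cck, CUBN and Lrp2.

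Over the 6 fish, 548 of 18213 gene models were higher in segment 3 (3.01%) and 731 were lower (4.01%) at an adjusted p under 0.05 (limma on log2(value + 1) with fish as a block, Benjamini-Hochberg adjustment). The median log2 fold change was 0.68 among the higher genes and -0.60 among the lower genes. Changes of at least 3 on the log2 scale were found in 25 of the higher and 22 of the lower genes. Of the 1279 called genes 1195 moved the same way in all 6 fish, as did 2740 of all 18213 tested models. A test with fish as a block favours such genes, so their number among the called ones is no separate result. The values of the segments did not overlap over 6 fish in 180 gene models that were higher (0.988%) and 208 that were lower (1.14%). In all, 7.02% of models were called. Without fish 6, 404 genes were higher (2.22%) and 544 lower (2.99%), together 5.21%, and 916 of the 1279 called genes were called again. Without fish 2 and fish 6, 841 were higher (4.62%) and 1172 lower (6.43%), together 11.1%, of which 1154 were among the 1279. The count rose to 876 higher and 1211 lower without fish 2, and fell to 260 to 316 higher and 336 to 357 lower without fish 1, 3, 4 or 5 in turn. Counts of single lists with a fish left out, given below, are to be read beside these totals. All gene lists here were chosen with earlier results of these data known, so their counts are a description and no test of a list. With fish left out of the model as a block, 125 genes were higher (0.686%) and 200 lower (1.1%), together 1.78%. The libraries are bulk tissue, in which fewer cells of a type and less RNA per cell cannot be told apart.

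**Figure D2:**
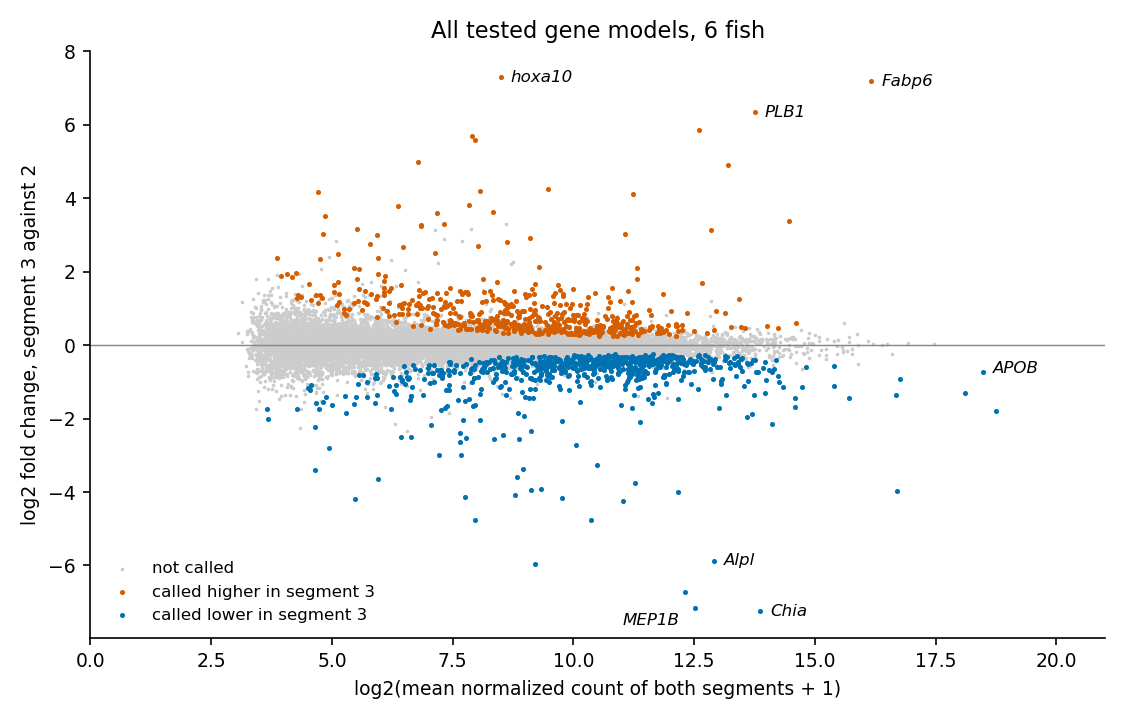
Log2 fold change of segment 3 against segment 2 (vertical axis) for each of the 18213 tested gene models against log2 of its mean normalized count over both segments (horizontal axis). The 548 gene models called higher and the 731 called lower are coloured, and Fabp6, at 7.19, and Chia, at -7.25, lie near the upper and lower ends.

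Genes of bile acid recovery were among those with the steepest rise between these segments. Of 25 tested gene models for bile acid transport, 5 were higher and 2 lower in segment 3, with 3.01% and 4.01% of all tested models called in these directions, and the median of the list was -0.18. The ileal bile acid-binding protein Fabp6 (LABE_00051334), which carries bile acids through the cytosol, was at 127, 183, 479, 308, 194 and 70032 in segment 2 of fish 1 to 6. In segment 3 of the same fish it was at 96593, 5135, 199310, 218720, 154600 and 138850. Every fish was higher in segment 3, and the segments overlapped through the segment 2 library of fish 6 and the segment 3 library of fish 2. The log2 fold change was 7.19 (standard error 1.05, limma adjusted p = 0.0051) over 6 fish, 8.43 without fish 6 (adjusted p = 0.000392) and 9.34 without fish 2 and fish 6 (adjusted p = 6.82e-09). The apical sodium-dependent bile acid carrier SLC10A2 (LABE_00014762) was at 40.6 to 113 in segment 2 of fish 1 to 5 and at 5777 in fish 6, and at 9098 (median, 1768 to 23351) in segment 3 (log2 fold change 5.87, standard error 0.80, limma adjusted p = 0.00409). It was 6.83 without fish 6 (adjusted p = 0.000171).

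The exporter subunit slc51a (LABE_00015135) was at 221 to 486 in segment 2 of fish 1 to 5, at 1406 in fish 6 and at 4156 (median, 718 to 5886) in segment 3 (log2 fold change 3.04, standard error 0.47, limma adjusted p = 0.00586). Its partner slc51b (LABE_00049906), chosen after its values were seen, was at 3758, 4797, 4382, 4086, 2931 and 5064 in segment 2 and 13473, 3624, 12255, 14877, 13913 and 5549 in segment 3 of fish 1 to 6. It was higher in 5 fish and lower in fish 2, and did not pass over 6 fish (log2 fold change 1.19, standard error 0.32, limma adjusted p = 0.0559). It passed without fish 6 (log2 fold change 1.41, adjusted p = 0.0447) and without fish 2 and fish 6 (log2 fold change 1.86, adjusted p = 4.63e-05). The last fit was chosen after seeing the data and leaves out the only fish that fell, so it is no separate result. The bile acid carrier gene SLC10A1 (LABE_00006912), known from the basal side of liver cells, was at 409 (median, 40.3 to 641) in segment 2 and 1461 (median, 86.9 to 2074) in segment 3, with overlapping ranges but a rise in all 6 fish (log2 fold change 1.63, standard error 0.27, limma adjusted p = 0.0073). Of the genes of bile acid synthesis, the sterol 12-alpha-hydroxylase CYP8B1 (LABE_00056257) rose in all 6 fish (log2 fold change 1.31, standard error 0.20, limma adjusted p = 0.00604), and CYP7A1 (LABE_00000787), the rate-limiting enzyme of the main synthesis pathway, was at 4822 (median, 2485 to 38388) in segment 2 and 2573 (median, 569 to 13138) in segment 3 and was lower in all 6 fish (log2 fold change -1.70, standard error 0.34, limma adjusted p = 0.0166). The call of CYP7A1 was lost without fish 1, 3 or 5 (highest adjusted p = 0.0661). The bile salt export pump ABCB11 (LABE_00036579) was at 180.4 (median, 72.6 to 802) in segment 2 and 26.9 (median, 1.07 to 286) in segment 3 (log2 fold change -2.99, standard error 0.77, limma adjusted p = 0.0487), and its call was lost without any 1 of the 6 fish (adjusted p up to 0.148).

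**Figure D3:**
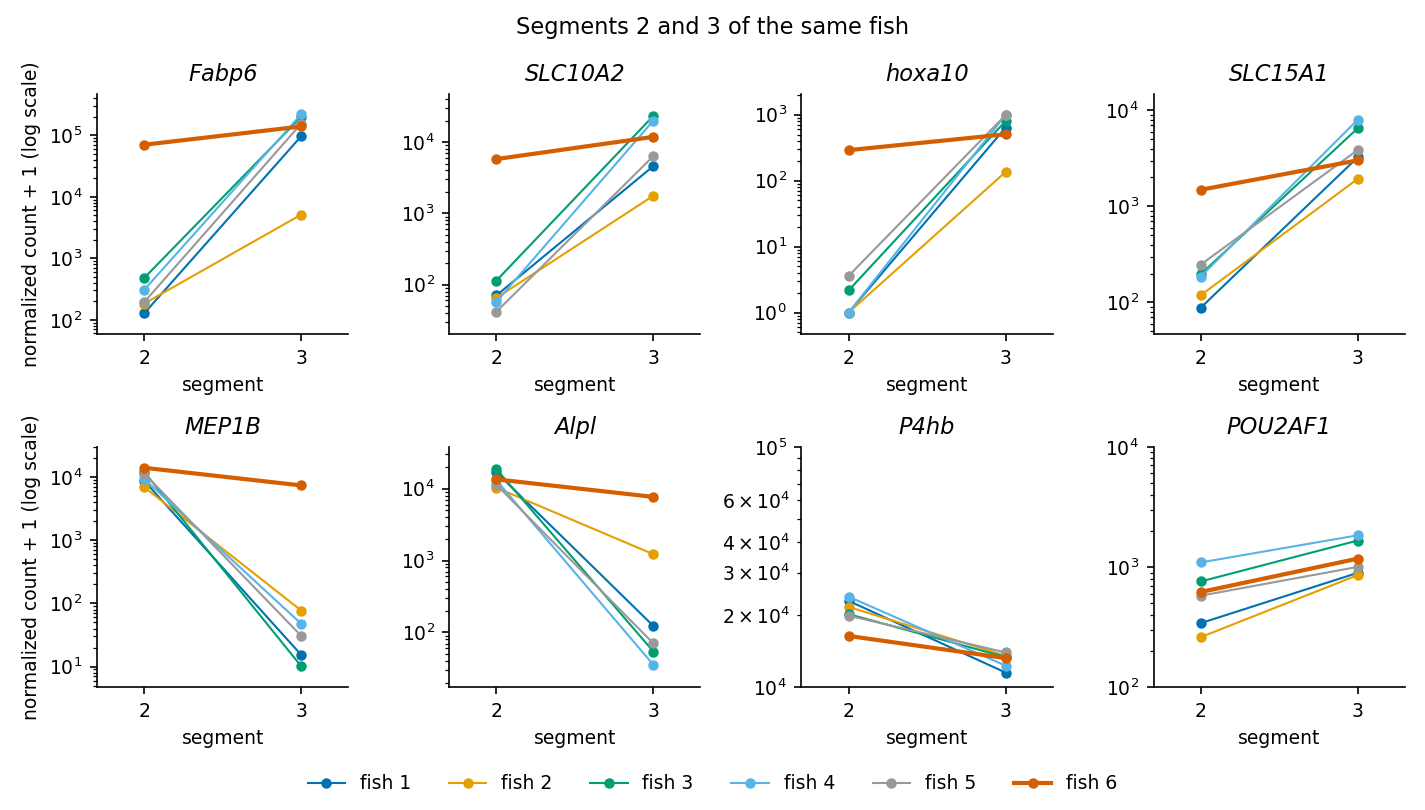
Normalized counts plus 1 (logarithmic vertical axes) of 8 gene models in segment 2 and segment 3, with 1 line per fish. Fabp6, SLC10A2, hoxa10 and SLC15A1 (LABE_00049604) rose and MEP1B and Alpl fell steeply in fish 1 to 5, the line of fish 6 (thick) is flatter in these 6 models, and in POU2AF1 it runs like those of the other fish.

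Transcription factor genes of the posterior axis rose across the same border. Of 45 tested HOX and other regional transcription factor models 16 were higher and 2 lower in segment 3, against 3.01% and 4.01% of all models, with a list median of 0.42 against 0.00 over all. The counts were 18 and 2 without fish 6, 21 and 2 without fish 2 and fish 6, and 12 to 19 higher over the fits that each left out 1 fish. hoxa10 (LABE_00032182) was at 0, 0, 1.16, 0, 2.59 and 289 in segment 2 and at 634, 134, 796, 987, 985 and 502 in segment 3 of fish 1 to 6 (log2 fold change 7.29, standard error 0.99, limma adjusted p = 0.00409). Its segment 2 value in fish 6 lay above the segment 3 value of fish 2, and the log2 fold change was 8.59 without fish 6 (adjusted p = 3.49e-05). The neighbouring models hoxa9 (LABE_00032178) and hoxa13a (LABE_00032184) rose by 5.70 and 5.59 (limma adjusted p = 0.00451 and 0.008). hoxc9 (LABE_00018821) was at 0 to 25 in segment 2 of fish 1 to 5, 50.6 in fish 6 and 225 (median, 71.9 to 299) in segment 3, so that the segments did not overlap (log2 fold change 4.98, standard error 0.88, limma adjusted p = 0.0103).

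Other regional factors were chosen for description after their values were seen. Models named hoxc8a were at 6.32 (median, 3.49 to 29.3) in segment 2 and 82.9 (median, 44 to 101) in segment 3 (LABE_00018819, log2 fold change 3.18, standard error 0.34, limma adjusted p = 0.00279) and at 0.864 (median, 0 to 10.7) and 42.1 (median, 32.5 to 67.7) (LABE_00018820, log2 fold change 4.17, standard error 0.57, limma adjusted p = 0.00409). PDX1 (LABE_00003301), a homeodomain factor known for the development of pancreas and duodenum in mammals, was at 11 (median, 3.23 to 40.9) in segment 2 and 87.8 (median, 50.7 to 148) in segment 3 without overlap (log2 fold change 2.76, standard error 0.42, limma adjusted p = 0.00552). The forkhead gene foxd2 (LABE_00042887) rose from 1.39 (median, 0 to 15.1) to 30.2 (median, 6.44 to 161) (log2 fold change 3.53, standard error 0.64, limma adjusted p = 0.0113). In the other direction, gata4 (LABE_00042570), a factor that specifies the proximal intestine in mice, was at 544, 579.5, 712, 548, 432 and 425 in segment 2 and 144, 128, 44.2, 24.3, 106 and 251 in segment 3 of fish 1 to 6 without overlap (log2 fold change -2.55, standard error 0.42, limma adjusted p = 0.00751). Its relative gata6-a (LABE_00019064) had a log2 fold change of -0.48 (adjusted p = 0.0216), a call that was lost without fish 1, 3 or 4 (adjusted p up to 0.0716). The intestinal master regulator CDX1 (LABE_00038637) had a log2 fold change of 0.42 (adjusted p = 0.0473) and lost its call without any of fish 1 to 5.

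Of 26 tested models in the list of brush border peptidases 4 were lower and 3 higher in segment 3 (median -0.20), against 4.01% and 3.01% of all models. Without fish 1, 3, 4 or 5 the higher ones were 1, and without fish 2 the lower ones were 6. The metalloprotease subunit MEP1B (LABE_00001277), meprin beta, was at 8767, 6964, 12088, 9372, 11430 and 14123 in segment 2 of fish 1 to 6. In segment 3 it was at 14.3, 76.2, 9.11, 46.6, 29.6 and 7419, and the segment 3 value of fish 6 overlapped the segment 2 range of the other fish. The log2 fold change was -7.16 (standard error 0.98, limma adjusted p = 0.00409) over 6 fish and -8.41 without fish 6 (adjusted p = 6.02e-05). OVCH2 (LABE_00007043), a secreted protease-like protein of the ovochymase family that the list holds although it is not a membrane enzyme, was at 3244 to 14843 in segment 2 and 17.6 to 43.6 in segment 3 of fish 1 to 5, and at 15882 and 8817 in fish 6 (log2 fold change -6.72, standard error 0.89, limma adjusted p = 0.00394). Enteropeptidase, TMPRSS15 (LABE_00076274), which activates trypsinogen, was at 781 (median, 549 to 1607) in segment 2 and 70.3 (median, 30.6 to 343) in segment 3, without overlap (log2 fold change -3.38, standard error 0.42, limma adjusted p = 0.00348). The surface peptidase neprilysin, Mme (LABE_00020794), chosen after its values were seen, fell from 2443 (median, 1345 to 3639) to 183 (median, 122 to 1483) (log2 fold change -3.26, standard error 0.38, limma adjusted p = 0.00282). In Mme the segment 3 value of fish 6, at 1483, reached into the segment 2 range. Of the peptidases that rose, Enpep (LABE_00030971), aminopeptidase A of the cell surface, was at 20656 (median, 13470 to 25730) and 29289 (median, 24097 to 36371) (log2 fold change 0.60, standard error 0.10, limma adjusted p = 0.00894). The dipeptidase genes DPEP1 (LABE_00013522) and Naaladl1 (LABE_00051565) had log2 fold changes of 0.47 and 0.51 (adjusted p = 0.046 and 0.0424), and both calls were lost without fish 1, 3, 4 or 5.

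Alkaline phosphatases and a phosphate carrier also fell. Alpl (LABE_00022112), a phosphatase at the cell surface, was at 16786, 10283, 18571, 13029, 11309 and 13418 in segment 2 and 122, 1220.2, 53.4, 34.5, 69.4 and 7657 in segment 3 of fish 1 to 6, without overlap (log2 fold change -5.87, standard error 0.94, limma adjusted p = 0.00677). Fish 2 and fish 6 had the highest segment 3 values, and the log2 fold change was -6.89 without fish 6 (adjusted p = 0.00137). The intestinal form ALPI (LABE_00031612) fell by less (log2 fold change -0.83, standard error 0.09, limma adjusted p = 0.00279). The sodium-phosphate carrier Slc34a2 (LABE_00065592) was at 1675 (median, 792 to 2819) in segment 2 and 309 (median, 76 to 599.9) in segment 3, and its segments did not overlap (log2 fold change -2.72, standard error 0.34, limma adjusted p = 0.00358). Of 18 tested phosphate and calcium genes 3 were lower and 1 higher, against 4.01% and 3.01% of all models, and the list median was 0.11. The 1 higher was CASR (LABE_00087127), named after the calcium-sensing receptor, at 207 (median, 89.9 to 251) and 309.8 (median, 163 to 379) (log2 fold change 0.62, standard error 0.16, limma adjusted p = 0.0447), a call lost without fish 1, 3, 4 or 5.

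Chitinase models were among those that fell most. Chia (LABE_00056104), an acidic chitinase that cleaves the chitin of crustacean shells, was at 11325, 25653, 40093, 7917, 6838 and 55801 in segment 2 of fish 1 to 6 and at 33.4, 29, 21.5, 69.9, 53.8 and 32043 in segment 3. Fish 1 to 5 did not overlap between the segments, while fish 6 remained at 32043 in segment 3 (log2 fold change -7.25, standard error 1.04, limma adjusted p = 0.00478). A second chitinase model Chia (LABE_00056099), chosen after its values were seen, fell from 195890 (median, 108860 to 258570) to 9204 (median, 1361 to 120860) (log2 fold change -3.98, standard error 0.69, limma adjusted p = 0.00945). OLFM4 (LABE_00009047), a secreted olfactomedin, was at 192 to 2343 and 9.76 to 44.6 in segments 2 and 3 of fish 1 to 5 and at 3697 and 1938 in fish 6 (log2 fold change -4.16, standard error 0.70, limma adjusted p = 0.00858). Models named after natterin, a toxin first described in a venomous fish, fell as well. Natterin-3 (LABE_00065137) was at 357 (median, 64.6 to 1353) and 6.14 (median, 1.3 to 144) (log2 fold change -4.78, standard error 0.77, limma adjusted p = 0.00711), and Natterin-3 (LABE_00071618) at 224 (median, 9.94 to 1119) and 5.61 (median, 0.953 to 342) (log2 fold change -4.12, standard error 0.73, limma adjusted p = 0.0104). ZAN (LABE_00016447), a zonadhesin-like model, was at 7967 (median, 7213 to 8602) in segment 2 and 357 (median, 112 to 5031) in segment 3, without overlap (log2 fold change -3.996, standard error 0.55, limma adjusted p = 0.00419). The glycosyltransferase gene GALNT8 (LABE_00026552), which starts mucin-type glycans, also fell without overlap (log2 fold change -4.09, standard error 0.60, limma adjusted p = 0.00524).

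Of 69 tested models for lipoprotein assembly and fat re-esterification 21 were lower and 1 higher in segment 3, with a list median of -0.20 against 0.00 over all models, of which 4.01% were lower and 3.01% higher. The counts were 19 lower and 0 higher without fish 6, 24 and 4 without fish 2 and fish 6, and 12 to 15 lower without fish 1, 3, 4 or 5. The apolipoprotein E models apoeb (LABE_00047834) and apoeb (LABE_00047833) lie side by side in the numbering and may share reads. The first was at 161410, 114450, 164180, 168040, 170150 and 124190 in segment 2 and 63866, 83388, 36748, 41358, 58117 and 80049 in segment 3 of fish 1 to 6 (log2 fold change -1.36, standard error 0.23, limma adjusted p = 0.00814), and the second at 154450 (median, 115350 to 169790) and 82908 (median, 57915 to 89186) (log2 fold change -0.91, standard error 0.15, limma adjusted p = 0.00851). In neither did the segments overlap. APOA1 (LABE_00047835), the main protein of high-density lipoprotein, was at 75995, 60086, 57944, 85977, 85617 and 76302 and 32087, 57902, 11058, 11690, 30937 and 51607 in the fish in the same order and was lower in all 6 without overlap (log2 fold change -1.43, standard error 0.32, limma adjusted p = 0.0292), but its call was lost without fish 1, 3, 4 or 5 (adjusted p up to 0.103). APOB (LABE_00031499), the backbone protein of chylomicrons, was at 449055 (median, 403420 to 516160) in segment 2 and 282085 (median, 215670 to 337110) in segment 3, without overlap (log2 fold change -0.74, standard error 0.18, limma adjusted p = 0.0407). Its call was lost without fish 1, 3, 4, 5 or 6 and with quantile normalization its log2 fold change was 0.29 (adjusted p = 0.378), which is the other direction.

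Further genes were chosen after their values were seen, most of them genes of fat handling. APOA4 (LABE_00004458), an apolipoprotein of chylomicrons, fell from 62.4 (median, 8.26 to 189.7) to 0.983 (median, 0.651 to 20.6) (log2 fold change -4.19, standard error 0.73, limma adjusted p = 0.00934), and another model of this name, APOA4 (LABE_00076034), from 40301 (median, 9653 to 74250) to 8293 (median, 3536 to 25053) (log2 fold change -1.69, standard error 0.29, limma adjusted p = 0.0092). The lipid droplet coat gene PLIN2 (LABE_00009890) was at 35861, 11626, 12240, 18250, 28030 and 15754 in segment 2 and 6849, 10078, 1879, 2075, 5913 and 10254 in segment 3 of fish 1 to 6 without overlap (log2 fold change -1.88, standard error 0.35, limma adjusted p = 0.0134), a call lost without fish 1, 3 or 5 (adjusted p up to 0.0567). MTTP (LABE_00036048), which loads lipid onto APOB, fell in 5 fish and was higher in segment 3 of fish 2, at 10614 and 11841 (log2 fold change -0.84, standard error 0.19, limma adjusted p = 0.029), and its call was lost without fish 1, 3, 4 or 5. The triglyceride-forming enzyme dgat2 (LABE_00072489) fell from 119.6 (median, 79.5 to 242) to 22.5 (median, 7.8 to 69.2), without overlap (log2 fold change -2.50, standard error 0.41, limma adjusted p = 0.00718). The model Type-4 ice-structuring protein LS-12 (LABE_00017890), outside the lipoprotein list and named after a fish antifreeze protein, was at 641020, 927320, 721270, 573250, 560350 and 546670 in segment 2 and 127820, 458590, 181530, 96983, 137770 and 310200 in segment 3 of fish 1 to 6 (log2 fold change -1.79, standard error 0.25, limma adjusted p = 0.00432). Its segments did not overlap. SIDT2 (LABE_00036988), also outside that list and named after a lysosomal nucleic acid transporter, fell from 372245 (median, 342620 to 481080) to 159745 (median, 112890 to 233660) without overlap (log2 fold change -1.30, standard error 0.21, limma adjusted p = 0.00668). Quantile normalization, which gives every library the same distribution of values, also ended the calls of APOA1, MTTP and SIDT2.

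Genes of the route from the ER to the Golgi apparatus were lower in segment 3 where they passed the test over 6 fish. Of 23 tested models of COPII, the coat of vesicles that leave the ER, 6 were lower and 0 higher, with a median of -0.34. Of 17 models of COPI, the coat of vesicles that return to the ER, 3 were lower and 0 higher, with a median of -0.40. Of 56 models for fusion, tethering and cargo receptors between both compartments 14 were lower and 0 higher (median -0.28), of 91 for ER translocation and folding 9 and 0 (median -0.16), and of 45 for N-glycan building 4 and 0 (median -0.14). Over all tested models 4.01% were lower and the median was 0.00. Since the lists were chosen with earlier results of these data known, this contrast is a description. These counts rested on which fish were used, as did those over all models. Without fish 2 they were 15, 14, 24, 22 and 10 lower in the same order of lists, without fish 6 they were 6, 3, 13, 7 and 4, and without fish 1, 3 or 4 they were 0, 1, 5, 4 and 0. Without fish 5 they were 0, 1, 5, 4 and 1, and without fish 2 and fish 6 they were 15, 14, 23, 21 and 10. In these fits the higher members were 1 of COPII and 1 of ER translocation and folding without fish 2. Without fish 2 and fish 6 there was 1, of COPII. Over all 18213 models 731 were lower with 6 fish, 1211 without fish 2 and 544 without fish 6. They were 336 to 357 without fish 1, 3, 4 or 5 in turn, and 1172 without fish 2 and fish 6.

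The protein disulphide isomerase P4hb (LABE_00051471), which is also a subunit of the protein that loads lipoproteins, was at 22883, 21605, 20152, 23822, 19870 and 16353 in segment 2 and 11522, 13539, 13363, 12309, 13967 and 13230 in segment 3 of fish 1 to 6. The segments did not overlap, and the log2 fold change was -0.67 (standard error 0.10, limma adjusted p = 0.00577) over 6 fish and -0.74 without fish 6 (adjusted p = 0.00647). A second model, P4HB (LABE_00027621), was at 7201 (median, 6507 to 8410.3) and 3828 (median, 2056 to 5095), also without overlap (log2 fold change -1.05, standard error 0.15, limma adjusted p = 0.00478). The COPI subunit COPE (LABE_00012247) was at 3342 (median, 2593 to 3507) in segment 2 and 2252 (median, 2065 to 2367) in segment 3 without overlap (log2 fold change -0.50, standard error 0.09, limma adjusted p = 0.00942), and kept its call without each single fish (adjusted p up to 0.0417). Fish 2 differed from the rest in other coat genes. The COPII cargo adaptor SEC24D (LABE_00009781) was at 6510, 2623, 7262, 5778, 5879 and 3448 in segment 2 and 3050.1, 3015, 1989, 1759, 2512 and 2435 in segment 3 of fish 1 to 6, lower in 5 fish and higher in fish 2 (log2 fold change -1.03, standard error 0.24, limma adjusted p = 0.0299). SEC16B (LABE_00001238), which organises ER exit sites, was at 4323, 2348, 3538, 2660.1, 3365 and 1793 and 1960.3, 2536, 1318, 1092, 1348 and 1564 and showed the same split (log2 fold change -0.88, standard error 0.20, limma adjusted p = 0.0319). The small GTPase ARF4 (LABE_00052920) was at 4134, 1875, 3316, 3251, 3283 and 1956 and 1494, 2411, 882, 763, 1186 and 1373, and again fish 2 alone was higher in segment 3 (log2 fold change -1.18, standard error 0.28, limma adjusted p = 0.0353). The calls of these 3 genes were lost without fish 1, 3, 4 or 5. All 3 passed without fish 6 (adjusted p = 0.0409, 0.0271 and 0.0447) and without fish 2 and fish 6 (adjusted p = 0.000316, 3.62e-05 and 6.39e-05). The last fit, chosen after seeing the data, leaves out the only fish that was higher, so its lower p is no separate result. Of the sugar nucleotide enzymes that feed N-glycans, PGM3 (LABE_00032544) fell from 3682 (median, 2746 to 4355) to 1826 (median, 1406 to 2974) (log2 fold change -0.90, standard error 0.19, limma adjusted p = 0.0212) and Uap1 (LABE_00054189) from 12142 (median, 10061 to 13777) to 8482 (median, 6607 to 11004) (log2 fold change -0.52, standard error 0.10, limma adjusted p = 0.0159). Both calls were lost without fish 1, 3 or 4, and that of PGM3 also without fish 5.

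Other named genes of this route changed by less than 1 on the log2 scale. In the COPII list Cideb (LABE_00029042) and TFG (LABE_00049526) had log2 fold changes of -0.34 and -0.47 (adjusted p = 0.0285 and 0.0391), and the coat genes sec23a (LABE_00054769) and SAR1A (LABE_00019553), chosen after their values were seen, -0.68 and -0.65 (adjusted p = 0.0258 and 0.0349). The COPI subunit COPZ1 (LABE_00050311) was at 937 (median, 563 to 1329.9) and 549 (median, 452 to 686) and was lower in all 6 fish (log2 fold change -0.68, standard error 0.17, limma adjusted p = 0.0452). The Golgi GTPase RAB6A (LABE_00009209) was lower in all 6 fish without overlap, at 4134 (median, 3297 to 4633) and 2569 (median, 2074 to 3148) (log2 fold change -0.65, standard error 0.13, limma adjusted p = 0.0168). Rab1A (LABE_00006157), which acts between ER and Golgi, the cargo receptor TMED9 (LABE_00025030) and the receptor KDELR2 (LABE_00002309), which returns resident proteins to the ER, had log2 fold changes of -0.51, -0.41 and -0.70 (adjusted p = 0.0405, 0.0396 and 0.0287). Among folding genes Rrbp1 (LABE_00052421), a ribosome-binding protein of the ER, and the calcium-binding calub (LABE_00011777) had -0.34 and -0.43 (adjusted p = 0.0274 and 0.0419). Among N-glycan genes TGDS (LABE_00048710) was lower in all 6 fish without overlap (log2 fold change -0.78, standard error 0.16, limma adjusted p = 0.0182), and DHDDS (LABE_00015446), which builds the lipid carrier dolichol, had a log2 fold change of -0.91 (adjusted p = 0.0402). The calls of all genes in these sentences were lost without fish 1, 3, 4 or 5, each left out alone, and those of Cideb, Rab1A and DHDDS also without fish 6. The calls of Cideb, TFG, Rab1A, TMED9, Rrbp1, calub and Uap1 were lost with quantile normalization as well.

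**Figure D4:**
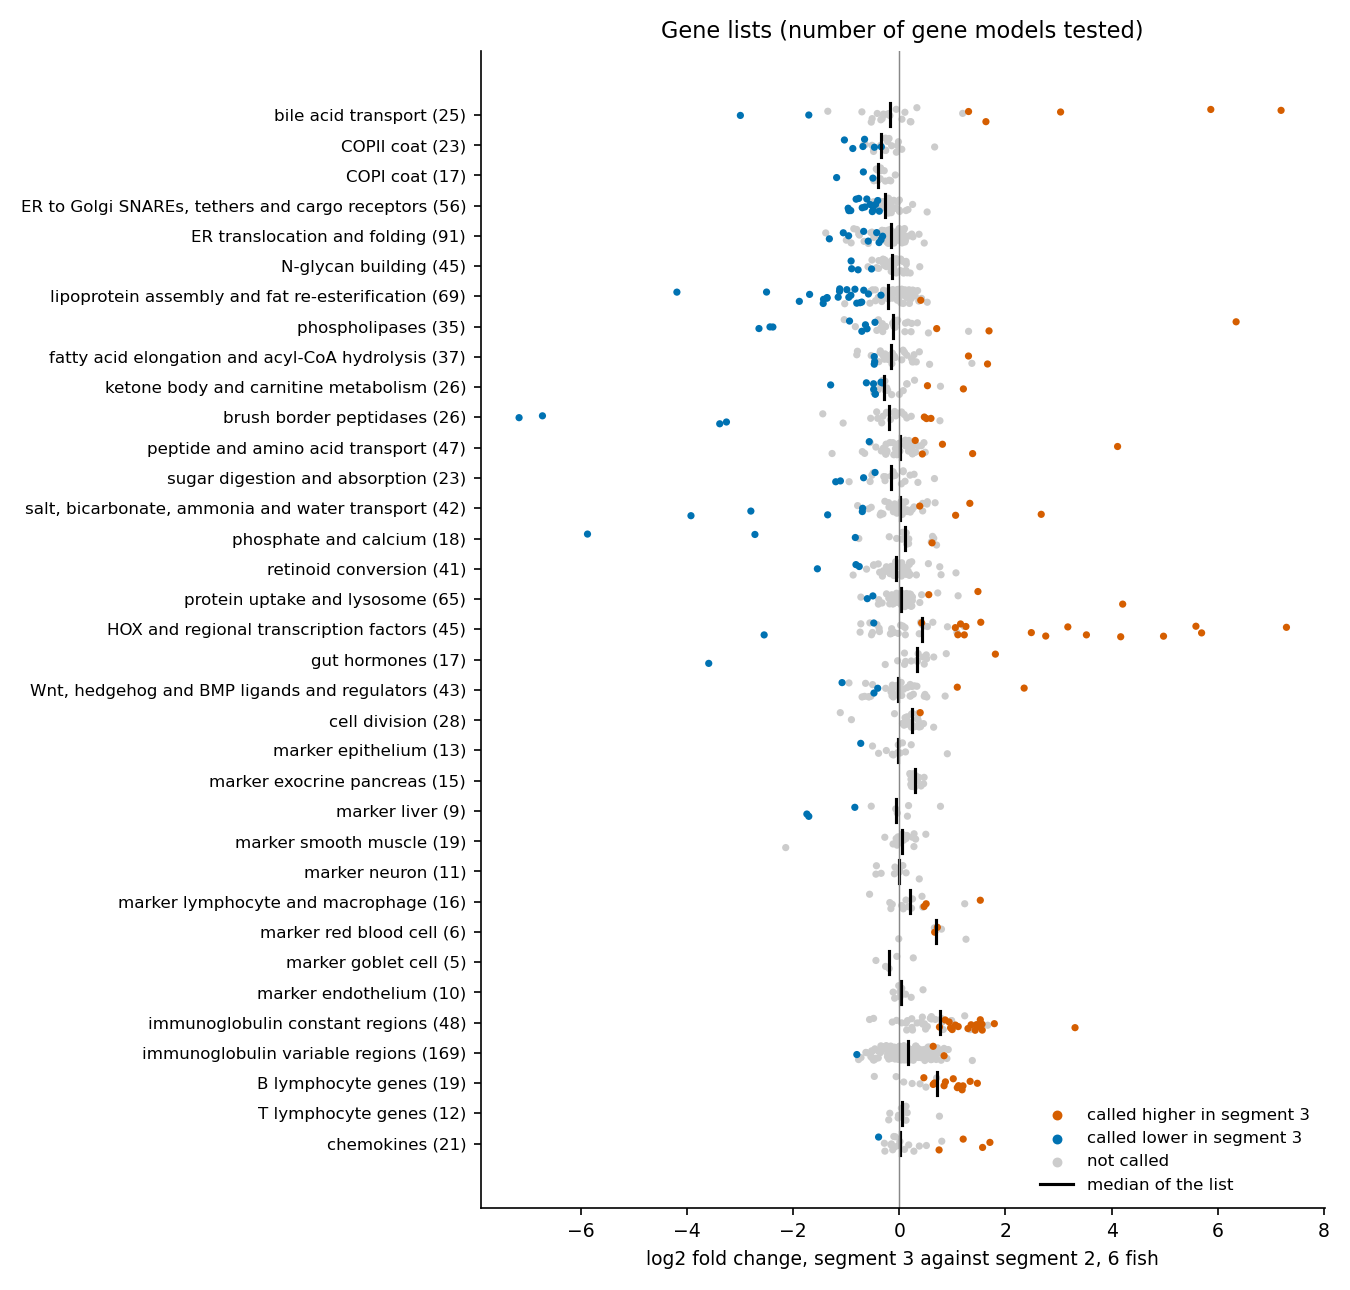
Log2 fold change of segment 3 against segment 2 over 6 fish (horizontal axis) for the tested gene models of each list (rows, number tested in brackets), with called models coloured and the list median as a black bar. Called members of the ER and Golgi lists lie to the left of zero, those of the B lymphocyte list to the right, and the HOX list holds 16 called models to the right and 2 to the left.

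Several genes of 1 name moved in opposite directions. The phospholipase B model PLB1 (LABE_00025919) was at 92, 72.3, 154, 134, 491 and 9067 in segment 2 and 22513, 10567, 38028, 39581, 26352 and 19421 in segment 3 of fish 1 to 6, without overlap (log2 fold change 6.35, standard error 0.80, limma adjusted p = 0.00372). The log2 fold change was 7.39 without fish 6 (adjusted p = 2.31e-05). In contrast, the models Plb1 (LABE_00075407) and Plb1 (LABE_00046817), chosen after their values were seen, fell from 274 (median, 149 to 617) to 53.8 (median, 5.46 to 277) and from 298 (median, 201.3 to 496) to 58.2 (median, 8.11 to 215) (log2 fold changes -2.64 and -2.38, limma adjusted p = 0.0112 and 0.0075). Models of ENPP7, an alkaline sphingomyelinase of the brush border, also split. ENPP7 (LABE_00049718) was at 1862, 279, 6847, 3029.8, 3283 and 5362 in segment 2 and 9186, 1546, 16006, 13350, 9142 and 7760.3 in segment 3 and rose in all 6 fish (log2 fold change 1.69, standard error 0.23, limma adjusted p = 0.00409), while ENPP7 (LABE_00064212) and ENPP7 (LABE_00049716) were lower (log2 fold changes -0.64 and -0.46, adjusted p = 0.0308 and 0.0217). Both lost their calls without fish 1, 3 or 4, and the first also without fish 5. In all, 3 of 35 tested phospholipases were higher and 8 lower, against 3.01% and 4.01% of all models. Leaving out 1 fish gave 3 to 9 lower, with 3 without fish 3 or fish 4 and 4 without fish 1.

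Models of peptide transporters also differed in direction. The table names all 3 of them SLC15A1, whereas the authors name the first one below slc15a2 and the other two slc15a1, so that it may be a different family member. SLC15A1 (LABE_00049604) was at 87, 118, 195, 185, 246 and 1488 in segment 2 and 3234, 1929, 6499, 7962, 3858 and 3014 in segment 3 of fish 1 to 6. The segments did not overlap (log2 fold change 4.11, standard error 0.49, limma adjusted p = 0.00282), and the log2 fold change was 4.73 without fish 6 (adjusted p = 3.49e-05). SLC15A1 (LABE_00037938) was at 50487 (median, 37802 to 75340) in segment 2 and 31332 (median, 27986 to 46947) in segment 3 and was lower in all 6 fish (log2 fold change -0.57, standard error 0.10, limma adjusted p = 0.00893). The third model Slc15a1 (LABE_00017465) did not pass (log2 fold change -0.55, adjusted p = 0.0549). Of 47 tested peptide and amino acid carriers 5 were higher and 1 lower in segment 3, against 3.01% and 4.01% of all models. The counts were 2 and 1 without fish 3, 4 or 5, 3 and 1 without fish 1 or fish 6, and 6 and 4 without fish 2. Among them the glutamate carrier SLC1A1 (LABE_00035589) was at 2111 (median, 1059 to 3312) in segment 2 and 4852 (median, 3195 to 7963) in segment 3 (log2 fold change 1.38, standard error 0.32, limma adjusted p = 0.0317), a call lost without fish 1, 3, 4 or 5. The neutral amino acid carrier Slc6a19 (LABE_00034444) was at 1834 (median, 1042 to 2856) and 3199 (median, 1477 to 4589) and rose in all 6 fish (log2 fold change 0.81, standard error 0.13, limma adjusted p = 0.00666).

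Ladderlectin models, named after a trout lectin that binds bacterial surfaces and chosen here after their values were seen, were called in both directions. Ladderlectin (LABE_00064509) was at 708, 2160, 995, 11643, 1777 and 14254 in segment 2 and 10680, 18942, 89757, 78775, 17961 and 22207 in segment 3 of fish 1 to 6 (log2 fold change 3.38, standard error 0.56, limma adjusted p = 0.00785), and Ladderlectin (LABE_00064508) rose as well (log2 fold change 3.15, standard error 0.56, limma adjusted p = 0.0102). Ladderlectin (LABE_00053483) was at 19242, 49441, 29352, 37449, 30259 and 9130.3 in segment 2 and 3769, 8963, 4848, 5763, 8338 and 4741 in segment 3 and fell without overlap (log2 fold change -2.15, standard error 0.20, limma adjusted p = 0.00279). The models Ladderlectin (LABE_00068125) and Ladderlectin (LABE_00077322) fell too (log2 fold changes -1.36 and -2.06, adjusted p = 0.00409 and 0.00998). Models of 1 name may share reads, and the sources used here do not give the handling of such reads.

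Genes of sugar, ketone body and carnitine, and vitamin A handling were mostly lower where they passed, and those of fatty acid elongation went both ways. Of 23 tested sugar genes 4 were lower and 0 higher, against 4.01% and 3.01% of all models. The gluconeogenic enzyme PCK1 (LABE_00025597) was at 9719, 5778, 12497, 8131, 8267 and 6893 in segment 2 and 4380.1, 2292, 3467, 3655, 3683 and 4769 in segment 3 of fish 1 to 6, without overlap (log2 fold change -1.20, standard error 0.14, limma adjusted p = 0.00281). The apical sodium-glucose carrier SLC5A1 (LABE_00008799) was at 17997 (median, 17429 to 19936) and 13516 (median, 10862 to 16538) without overlap (log2 fold change -0.46, standard error 0.08, limma adjusted p = 0.00994), and the basolateral glucose carrier SLC2A2 (LABE_00056977) at 1087 (median, 754 to 1416) and 589 (median, 145 to 764) (log2 fold change -1.11, standard error 0.20, limma adjusted p = 0.0117). Trehalase, TREH (LABE_00079451), which splits the sugar of insect and fungal food, fell in segment 3 (log2 fold change -0.67, standard error 0.12, limma adjusted p = 0.0121). Of 26 tested genes of ketone body and carnitine metabolism 8 were lower and 2 higher, against 4.01% and 3.01% of all models, and without fish 1, 3, 4 or 5 they were 3 to 5 lower and 0 to 1 higher. The carnitine acyltransferase CPT1A (LABE_00002601), the gate of mitochondrial fatty acid oxidation, was at 6510.2 (median, 5558 to 7500.1) in segment 2 and 4753 (median, 4483 to 5133) in segment 3, without overlap (log2 fold change -0.45, standard error 0.07, limma adjusted p = 0.00544). The ketone body-using enzyme OXCT1 (LABE_00040702), chosen after its values were seen, rose in all 6 fish from 160.0 (median, 116 to 237) to 388 (median, 145 to 649.6) (log2 fold change 1.21, standard error 0.23, limma adjusted p = 0.0131), a call lost without fish 3 or 5. Of 37 genes of fatty acid elongation and acyl-CoA hydrolysis 2 were higher and 3 lower, against 3.01% and 4.01% of all models. Acot3 (LABE_00018479), an acyl-CoA thioesterase, was at 934 (median, 498 to 1490.2) and 2494 (median, 1049 to 3367) (log2 fold change 1.30, standard error 0.15, limma adjusted p = 0.00281). elovl6 (LABE_00038289), which lengthens saturated fatty acids and was chosen after its values were seen, rose in all 6 fish from 211 (median, 111 to 647) to 899 (median, 150.2 to 1493) (log2 fold change 1.66, standard error 0.28, limma adjusted p = 0.00801), whereas ELOVL1 (LABE_00047458), an elongase of very long fatty acids, fell without overlap from 3925 (median, 3742 to 4979) to 2848 (median, 2717 to 3381) (log2 fold change -0.47, standard error 0.07, limma adjusted p = 0.00666). The mitochondrial oxidation genes Acadvl (LABE_00007503) and HADHA (LABE_00006583) were lower in all 6 fish (log2 fold changes -0.48 and -0.45, adjusted p = 0.0111 and 0.0203), the latter call lost without fish 1, 4 or 5. The carnitine carrier SLC22A5 (LABE_00024842) rose in all 6 fish (log2 fold change 0.53, standard error 0.11, limma adjusted p = 0.022), and Bbox1 (LABE_00034559), the last enzyme of carnitine synthesis, chosen after its values were seen, fell in all 6 (log2 fold change -1.29, standard error 0.27, limma adjusted p = 0.0202). Both calls were lost without fish 1, 4 or 5, and that of SLC22A5 also without fish 3. Of 41 retinoid genes 3 were lower and 0 higher, against 4.01% and 3.01% of all models, and 2 and 0 without fish 1, 3, 4 or 6. Among the lower ones was the cellular retinol-binding protein RBP2 (LABE_00037091), at 1541 (median, 1065 to 1727) and 921 (median, 533 to 998) without overlap (log2 fold change -0.82, standard error 0.08, limma adjusted p = 0.00279). Another was the carotene-cleaving enzyme BCO1 (LABE_00069314), at 1686 (median, 607 to 2806) and 519 (median, 267 to 839.9) (log2 fold change -1.54, standard error 0.22, limma adjusted p = 0.00454).

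Of 42 tested models of salt, bicarbonate, ammonia and water transport 4 were higher and 5 lower, against 3.01% and 4.01% of all models. The counts were 1 and 3 without fish 3, 4 or 5, 2 and 4 without fish 1, and 6 and 6 without fish 2. Marine fish drink sea water and take up salt and water along the gut while secreting bicarbonate. The chloride-bicarbonate exchanger Slc26a6 (LABE_00040824) was at 6709, 7615, 7686, 8641, 5636 and 5852 in segment 2 and 3186, 7707, 4481, 3801, 3803 and 3986 in segment 3 of fish 1 to 6, lower in 5 fish and nearly equal in fish 2 (log2 fold change -0.69, standard error 0.14, limma adjusted p = 0.0183), and its call was lost without fish 1, 3, 4 or 5. The ammonia channel rhbg (LABE_00033114) was at 13527 (median, 4268 to 21270) and 4001 (median, 3654 to 9615) (log2 fold change -1.35, standard error 0.29, limma adjusted p = 0.0222), a call lost without fish 3, 4 or 5. The guanylin receptor GUCY2C (LABE_00037727) was lower in all 6 fish, at 3279 (median, 1756 to 3863) and 1874 (median, 1251 to 2518) (log2 fold change -0.70, standard error 0.10, limma adjusted p = 0.0051). SLC4A11 (LABE_00071263), a borate transporter-related carrier, was at 378 (median, 339.7 to 651) and 965 (median, 619 to 1592) and rose in all 6 fish (log2 fold change 1.33, standard error 0.20, limma adjusted p = 0.00552). The membrane-bound carbonic anhydrase Ca4 (LABE_00019657), chosen after its values were seen, was at 79.5, 22.7, 50, 27.4, 35.4 and 91.5 in segment 2 and 7.63, 1.07, 1.3, 8.11, 7.02 and 26.7 in segment 3 (log2 fold change -2.80, standard error 0.41, limma adjusted p = 0.0051). The water channel genes, also chosen after their values were seen, moved apart. AQP10 (LABE_00032476) was at 157, 769.6, 3371, 820.0, 607 and 1193 in segment 2 and 19.1, 30, 37.7, 44.6, 25.7 and 676 in segment 3 (log2 fold change -3.92, standard error 0.56, limma adjusted p = 0.00478), and Aqp8 (LABE_00033297) at 27.3, 5.16, 32.6, 5.65, 4.32 and 80.8 and 119, 7.51, 172, 317, 147 and 136 (log2 fold change 2.67, standard error 0.64, limma adjusted p = 0.0364), whose call was lost without fish 1, 3, 4 or 5.

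Of 17 tested gut hormone genes 1 was higher and 1 lower, against 3.01% and 4.01% of all models. Without fish 2 they were 5 and 1, and 0 were lower without fish 1, 3 or 5. The relaxin family gene Rln3 (LABE_00052570) was at 987, 828, 1286, 994, 1151 and 1349.9 in segment 2 and 3626, 2845, 6206, 4672, 3959 and 2559.7 in segment 3 of fish 1 to 6, without overlap (log2 fold change 1.81, standard error 0.15, limma adjusted p = 0.00279). The appetite-reducing peptide gene pyya (LABE_00046718) was at 818, 501, 1201, 574, 981 and 606 in segment 2 and 27.6, 334, 32.5, 7.09, 59.3 and 353 in segment 3, without overlap (log2 fold change -3.59, standard error 0.70, limma adjusted p = 0.0157), and its call was lost without fish 1, 3 or 5. The related model Peptide Y (LABE_00049925), a gene pyyb by the naming of the authors that the list does not count because of its name in the table, was at 2364, 3450.2, 5074, 2827, 3548 and 4146 and 66.7, 908, 161, 27.4, 57 and 2356. It did not overlap between segments either (log2 fold change -4.23, standard error 0.69, limma adjusted p = 0.00724), and kept its call without each single fish. The cholecystokinin gene cck (LABE_00001570) was at 455 (median, 378 to 568) in segment 2 and 596 (median, 354 to 1079.5) in segment 3 and did not pass over 6 fish (log2 fold change 0.47, standard error 0.21, limma adjusted p = 0.233). It was lower in segment 3 only in fish 2 and fish 6 (log2 differences -0.48 and -0.15). Without fish 6 it did not pass (adjusted p = 0.185). It passed without fish 2 and fish 6 (log2 fold change 0.86, adjusted p = 0.00338), a choice made after seeing the data. That fit leaves only fish in which cck rose, so it is no separate result. The other cholecystokinin model, LABE_00034484, was below the minimum value and was not tested. The model LABE_00007846, unnamed in the table and motilin by the naming of the authors, was at 478 (median, 324 to 634) and 417 (median, 357 to 490.5) and did not pass (log2 fold change -0.14, standard error 0.14, limma adjusted p = 0.633). LEAP2 (LABE_00055895), a ghrelin receptor antagonist and antimicrobial peptide of mammals chosen after its values were seen, was at 768, 506, 611, 449, 597 and 1292 in segment 2 and 364, 12.9, 29.9, 94.2, 197 and 655 in segment 3 (log2 fold change -2.56, standard error 0.53, limma adjusted p = 0.0196), a call lost without fish 3 or 4. Of 28 tested genes of cell division 1 was higher and 0 lower, near the 3.01% and 4.01% of all models. The 1 higher was the replication gene mcm5 (LABE_00067159) (log2 fold change 0.39, standard error 0.08, limma adjusted p = 0.0178, lost without fish 1, 4 or 5). Of 43 genes of Wnt, hedgehog and BMP signals 2 were higher and 3 lower, against 3.01% and 4.01% of all models, and 0 and 1 without fish 1, 3 or 4. The ligand Wnt6 (LABE_00025247) was at 236 (median, 172 to 331) and 113 (median, 76 to 125) without overlap (log2 fold change -1.08, standard error 0.18, limma adjusted p = 0.0075). The stem cell signal rspo3 (LABE_00001597) was at 6426 (median, 5719 to 7263) and 4409 (median, 3916 to 5815) (log2 fold change -0.48, standard error 0.09, limma adjusted p = 0.0166), a call lost without fish 1, 3 or 4.

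Many genes of B lymphocytes were higher in segment 3. Lists for them were written after the values were seen, so their direction is a description. Of 19 tested B lymphocyte genes 12 were higher and 0 lower (median 0.70), and of 48 immunoglobulin constant region models 17 were higher and 0 lower (median 0.78), against 3.01% higher among all models. The counts were 11 and 15 without fish 6, 8 to 12 and 10 to 21 over the fits that each left out 1 fish, and 2 and 0 with fish left out of the model. Of 169 immunoglobulin variable region models 2 were higher and 1 lower, against 3.01% and 4.01% of all models. Of 12 T lymphocyte genes 0 passed in either direction, which a list this short can hold at the shares of all models. The adaptor Blnk (LABE_00053779) was at 840.2, 754, 1096, 1168, 864 and 1053 in segment 2 and 1289, 1324, 1877, 1878, 1338 and 1447 in segment 3 of fish 1 to 6, without overlap (log2 fold change 0.66, standard error 0.07, limma adjusted p = 0.00279). The kinase SYK (LABE_00046183) was at 1108 (median, 619 to 1643) and 1964 (median, 1542 to 3176) and rose in all 6 fish (log2 fold change 1.02, standard error 0.10, limma adjusted p = 0.00279). POU2AF1 (LABE_00037831), a B cell transcription coactivator, was at 341, 260.3, 757, 1091, 577 and 619 and 893, 855, 1659, 1834, 1002 and 1174 and was higher in all 6 fish (log2 fold change 1.12, standard error 0.13, limma adjusted p = 0.00281). The immunoglobulin heavy chain model IGHM (LABE_00073002) was at 137, 126, 367, 412, 244 and 500.0 in segment 2 and 367, 568, 1457, 1093, 683 and 812 in segment 3 (log2 fold change 1.53, standard error 0.17, limma adjusted p = 0.00279). The ranges of these last 3 genes overlapped between segments, while every fish was higher in segment 3 than in its own segment 2. The light chain model Ig lambda chain C region (LABE_00077201) was at 376 (median, 127 to 701) and 794 (median, 309.9 to 1154) and rose in all 6 fish (log2 fold change 0.97, standard error 0.11, limma adjusted p = 0.00282), and CD22 (LABE_00052184), an inhibitory receptor of B lymphocytes, from 4166 (median, 1200.3 to 5999) to 6131 (median, 4550.2 to 8550.2) (log2 fold change 0.87, standard error 0.18, limma adjusted p = 0.0183), a call lost without fish 1 or 3. The kinase Btk (LABE_00029275), which relays the B cell receptor signal, had a log2 fold change of 0.64 (adjusted p = 0.0051). The pan-leukocyte gene ptprc (LABE_00004890) was at 9344 (median, 8621 to 13263) and 14162 (median, 11869 to 16779) and rose in all 6 fish (log2 fold change 0.47, standard error 0.08, limma adjusted p = 0.0106), as did CORO1A (LABE_00039331), an actin-binding protein of leukocytes (log2 fold change 0.51, standard error 0.07, limma adjusted p = 0.00419). Of 16 tested white blood cell markers 3 were higher and 0 lower, against 3.01% and 4.01% of all models. The 3 were ptprc, CORO1A and IGHM, and IGHM is also among the constant region models counted above. The summed value of the marker list was 33040 to 65267 in segment 2 and 42173 to 64675 in segment 3.

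Chemokines, which draw white blood cells into tissue, formed another list written after the values were seen. Of 21 tested models 4 were higher and 1 lower, against 3.01% and 4.01% of all models, and 2 were higher without fish 3 or fish 5. CXCL8 (LABE_00067673), which attracts neutrophils in mammals, was at 788, 458, 702, 1444, 943 and 1260.2 in segment 2 and 2214, 2559.5, 3416, 3011, 2689 and 1898 in segment 3 of fish 1 to 6, without overlap (log2 fold change 1.57, standard error 0.22, limma adjusted p = 0.0043). CXCL13 (LABE_00064073), known in mammals for guiding B lymphocytes into follicles, was at 62.1, 30, 173, 330.1, 89 and 379 and 98.2, 440.0, 477, 913, 299.6 and 814 (log2 fold change 1.71, standard error 0.34, limma adjusted p = 0.0165), a call lost without fish 3 or 5. CCL4 (LABE_00052605) rose by 1.20 (adjusted p = 0.0169, lost without fish 1) and cxcl12 (LABE_00034033) by 0.75 (adjusted p = 0.0205, lost without fish 3, 4 or 5). The 1 lower model was CCL14 (LABE_00032620) (log2 fold change -0.39, adjusted p = 0.0311), whose call was lost without fish 1, 3, 4, 5 or 6.

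The named receptors of protein uptake did not pass the test. The model CUBN (LABE_00025543) is named after the mammalian receptor of vitamin B12 bound to intrinsic factor. The paper found cubn in wrasse but not the gene of intrinsic factor. CUBN was at 26.1 (median, 22.4 to 48) in segment 2 and 19.3 (median, 5.72 to 51) in segment 3. Megalin, Lrp2 (LABE_00002019), was at 49.3 (median, 37.3 to 96.8) and 49.2 (median, 16.2 to 102), and neither passed (log2 fold changes -0.72 and -0.32, limma adjusted p = 0.229 and 0.475). Their partner AMN (LABE_00003530) was at 11.5 (median, 6.92 to 24.9) and 33.2 (median, 15.3 to 41.9) (log2 fold change 1.11, standard error 0.29, limma adjusted p = 0.0537). Of 65 tested genes of protein uptake and the lysosome 3 were higher and 2 lower, near the 3.01% and 4.01% of all models. They were 9 and 2 without fish 2 and fish 6, where 4.62% and 6.43% of all models were called. Rab32 (LABE_00006530), a small GTPase of lysosome-related organelles, was at 0, 3.1, 19.8, 29.1, 19.9 and 243 in segment 2 and 113, 26.8, 433, 1128, 715 and 469.7 in segment 3 of fish 1 to 6 and rose in all 6 fish (log2 fold change 4.21, standard error 0.63, limma adjusted p = 0.00544). The lysosomal protease CTSH (LABE_00000349) rose from 136 (median, 56.8 to 383) to 385 (median, 314 to 598) (log2 fold change 1.48, standard error 0.23, limma adjusted p = 0.00609), while the membrane protein LAMP1 (LABE_00020129) fell from 1233 (median, 1053 to 1612) to 763 (median, 703 to 1145) (log2 fold change -0.60, standard error 0.08, limma adjusted p = 0.00392). TMIGD1 (LABE_00053039), an adhesion protein of the mammalian brush border, was at 165 to 599.7 in segment 2 of fish 1 to 5, 9930.4 in fish 6 and 16654 (median, 4415 to 28992) in segment 3 (log2 fold change 4.91, standard error 0.63, limma adjusted p = 0.00382). A model that the authors list under the vitamin B12 carrier transcobalamin but that is unnamed in the table, LABE_00037777, did not pass (log2 fold change 0.13, standard error 0.50, limma adjusted p = 0.919). Another model that they list so, named Vtcn1 (LABE_00042844) in the table, fell in all 6 fish (log2 fold change -0.61, standard error 0.12, limma adjusted p = 0.0161), a call lost without fish 1, 4 or 5. The paper describes its transcobalamin 2 gene as enriched in the hind-gut, whereas LABE_00042844 had a median of 1980 in segment 1 and 97.0 in segment 4. Which name is right for this model was not tested.

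The levels in the segments on either side are given for orientation, with no test. Fabp6 was at 292 (median, 72.3 to 487) in segment 1 and 142740 (median, 109360 to 207280) in segment 4, and hoxa10 at 1.29 (median, 0 to 3.48) and 1014 (median, 851 to 1124), and for both genes the segment 2 values of fish 1 to 5 lay within the range of segment 1. MEP1B was at 32974 (median, 21567 to 47626) in segment 1 and 26.3 (median, 19.7 to 57.4) in segment 4. Alpl was at 21722 (median, 15907 to 25508) and 29.1 (median, 14.4 to 36.8). PLB1 (LABE_00025919) had its highest median in segment 3, with 47.9 (median, 29.6 to 77.3) in segment 1 and 5716 (median, 5116 to 16630) in segment 4. PITX1 (LABE_00019541), a homeodomain factor of the hindlimb in mammals chosen after its values were seen, was at 6.65 (median, 2.47 to 17), 202 (median, 112 to 329), 471 (median, 248 to 742) and 5.36 (median, 3.14 to 301) in segments 1 to 4, and rose from segment 2 to segment 3 in all 6 fish (log2 fold change 1.25, standard error 0.16, limma adjusted p = 0.00375). CUBN and Lrp2 were at 25085 (median, 8815 to 33648) and 41933 (median, 14715 to 52424) in segment 4, far above both segments compared here.

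Among the models without a name, LABE_00033800 was at 793, 1533, 1157, 694, 788 and 1334 in segment 2 and 1.91, 58, 3.25, 5.07, 4.68 and 722 in segment 3 of fish 1 to 6 (log2 fold change -5.95, standard error 0.82, limma adjusted p = 0.00419), and LABE_00072967 at 758, 6695, 1301, 1914, 2497 and 1501 and 42, 58, 13.7, 19.3, 218 and 697, without overlap (log2 fold change -4.77, standard error 0.67, limma adjusted p = 0.00451). LABE_00015370 was at 12.4, 13.4, 4.65, 0, 0 and 611 in segment 2 and 73.4, 6343, 319, 2.03, 61.6 and 1105 in segment 3 (log2 fold change 4.25, standard error 0.92, limma adjusted p = 0.0247), with its highest value in segment 3 of fish 2. LABE_00002719 was at 4.97, 6.2, 1.16, 0, 0 and 219 and 24.8, 1983, 125, 3.04, 15.6 and 363, again highest in fish 2 (log2 fold change 3.81, standard error 0.85, limma adjusted p = 0.0269). The calls of the last 2 models were lost without fish 1, 3 or 5. Both had the same order of fish in segment 3 and their highest segment 2 value in fish 6. Whether they are separate signals was not tested.

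**Figure D5:**
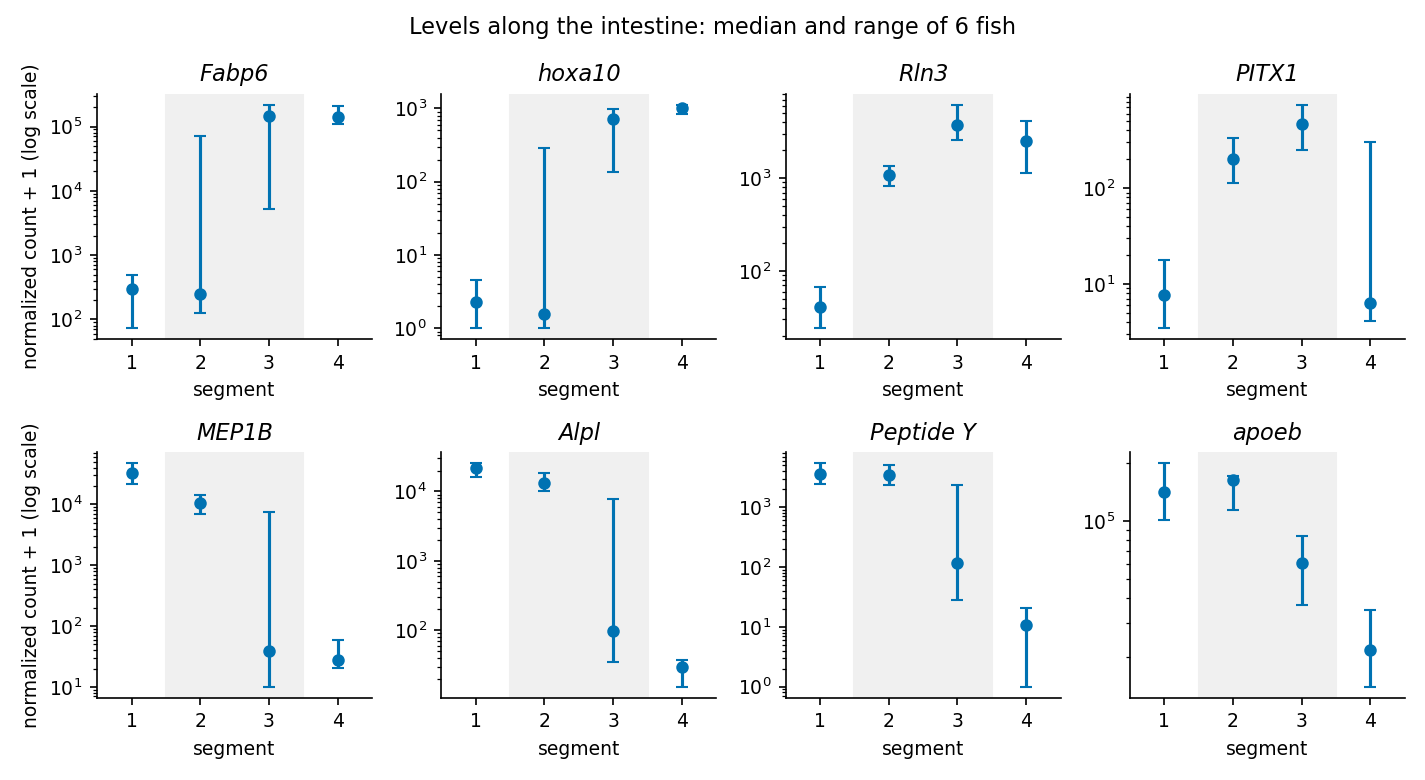
Normalized counts plus 1 (logarithmic vertical axes) of 8 gene models in segments 1 to 4 of the intestine, with the median of 6 fish as a point and the lowest and highest fish as a bar, and segments 2 and 3 shaded. Long bars in segment 2 of Fabp6 and hoxa10 and in segment 3 of MEP1B and Alpl end at the libraries of fish 6, and PITX1 has its highest median in segment 3.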

How the data were processed

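RNA of 4 intestinal segments from each of 6 adult fish was sequenced (24 libraries per the labels, while the methods name 5 fish). Whole gut segments were rinsed and flash frozen, RNA was extracted with an EZ1 robot, and TruSeq libraries were run on an Illumina HiSeq instrument. The authors trimmed the reads with cutadapt and sickle, aligned them with TopHat2 to their own wrasse genome assembly, counted reads per gene model with featureCounts and scaled the counts with DESeq2. The deposited values are a signal of this kind, normalized counts, which were divided by a size factor per library. Neither the strand setting nor the handling of reads with several matches is given in the sources. 1 blank line of the table was left out.

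Names are those of the deposited table, which names 23171 of 27392 models, and no sequence or coordinate of these models was used here. Whole reads were recovered from the deposited normalized counts by dividing by the value of 1 read (93.7% to 99.2% of values per library came out whole within 0.05), giving the depth per library, which limits the precision of low values. Models with a value of 10 or more in at least 6 of the 12 libraries of segments 2 and 3 were tested with limma 3.58.1 (R 4.3.3, trend) on log2(value + 1), a scale that understates the change of low genes, with fish as a block, two-sided, with Benjamini-Hochberg adjustment over all 18213 models and a threshold of 0.05. Both segments came from the same animal, and deviations of same-numbered libraries correlated at 0.343 to 0.63 in all 6 fish (mean 0.554). The mean between different fish was -0.11. Deviations were taken from the mean of the same 6 fish, which sets that value below zero, so it is no separate comparison. The methods take the 4 segments from each fish but state no paired test, so the fit without fish was an alternative. As alternatives the recovered reads were tested with edgeR 4.0.16 (quasi-likelihood) and with DESeq2 1.42.0. The scripts were tested on simulated data.

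Named genes were the 12 models with the largest change in each direction among those called, moving the same way in all 6 fish and with a mean of 100 or more in either segment, up to 4 called members of each list with the highest mean (all called members for bile acids), genes given in the study's text, and genes chosen after their values were seen, as marked. A few of the genes that this rule picks are not reported here. The members and lists were chosen with earlier results of these data known. Other alternatives were the pseudocount, the filter on low values, TMM scaling, quantile normalization, all 24 libraries in 1 fit, a robust prior and leaving out fish.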

Additional observations from a re-analysis of the deposited data

Results flagged for a closer look

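In 10 of the 163 named gene models tested, the paired log2 difference (segment 3 minus segment 2) of 1 fish lay far from those of the other 5 by Dixon's criterion. Chance meets this criterion in about 1 in 20 unselected groups. Many of these models were picked for moving the same way in all 6 fish, so the count of 10 cannot be set against that rate. The odd fish was fish 6 in 7 models. Its difference was 0.80 in hoxa10 (LABE_00032182), where the other fish were at 7.08 to 9.95, and 1.10 in PLB1 (LABE_00025919), against 5.74 to 8.20. It was 1.02 in SLC15A1 (LABE_00049604), against 3.96 to 5.42, and 0.92 in Rln3 (LABE_00052570), against 1.78 to 2.27. Of the models that fell, it was -0.85 in OVCH2 (LABE_00007043), against -9.64 to -7.21, -0.77 in TMPRSS15 (LABE_00076274), against -4.58 to -3.19, and -0.80 in Mme (LABE_00020794), against -4.24 to -3.11. In all 7 the fish 6 difference had the sign of the other fish and was nearer to zero.

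The odd fish was fish 2 in 3 models, each time with the larger difference. It was -2.37 in the glucose carrier SLC2A2 (LABE_00056977), where the other fish were at -1.27 to -0.72, -0.998 in gata6-a (LABE_00019064), against -0.52 to -0.24, and 3.83 in CXCL13 (LABE_00064073), against 0.65 to 1.74. The cause was not tested.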

How the results depend on the processing

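With fish as a block over 12 libraries, genes higher in segment 3 than in segment 2 numbered 548, and genes lower in segment 3 than in segment 2 numbered 731. Without the replicate block the counts were 125 and 200, and 200 and 219 with all 24 libraries and no block. DESeq2 without the block called 397 higher and 460 lower, against 727 and 1024 with it, and edgeR with the block 501 and 716. The paper's own DESeq2 analysis described few differences among segments 1 to 3. Its count for segments 2 and 3 was below that of every fit here over all models. The cause of this gap was not tested. Leaving out 1 fish at a time gave 260 to 876 higher and 336 to 1211 lower, with the highest counts without fish 2. Without fish 2 and fish 6, a choice made after seeing the data, they were 841 and 1172. Pseudocounts of 0.5 and 10, other filters on low values, TMM scaling, quantile normalization, a robust prior and all 24 libraries with the block gave 459 to 587 higher and 595 to 774 lower.

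Of the 155 named models that were called, 91 were called without each single fish and 33 under all 20 alternatives. With quantile normalization 140 of the 155 were still called, and without the block 73. Directions turned in APOB (0.29 with quantile normalization), in LABE_00007846 (0.020 without fish 2 and fish 6) and in LABE_00037777 (0.13 over 6 fish, -0.35 to 0.60 when 1 fish was left out, below zero at -0.35 and -0.14 without fish 1 and fish 4), the last 2 of which were not called. The cause was not tested. Models with a value of 10 or more in fewer than 6 of the 12 libraries were too low to be tested.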
